A study of Drosophila melanogaster with 8 samples.

Results

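The control adult head transcriptome of Drosophila melanogaster is described here from 3 RNA-seq libraries, out of 8 libraries in the series. They were chosen by their titles, which name them FBXO11 controls, and by the genotype entry FBXO11 WT. The other 5 libraries come from heads with a neuronal knockdown of FBXO11, an F-box protein that selects substrates for a ubiquitin ligase: 3 libraries are titled RNA1 (genotype FBXO11 KD1) and 2 are titled RNA2 (genotypes FBXO11 KD2 and FBXO11 KD3). The titles of the controls also carry the words neuronal knockdown, although their genotype entry reads WT. The labels give heads as the tissue and batch 1 for every library. The labels name neither the driver nor the RNAi construct, and they leave out the genetic background, the age and the sex of the flies; the series holds no second control genotype. Whether replicates were separate pools of flies is not stated, so the spread reported here, and every p-value, covers the difference from sample to sample alone and could be technical in origin.

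The fly head is dominated in volume by the compound eyes and the brain, and also holds glia, muscles that move the mouthparts and antennae, a layer of fat body, circulating hemocytes, the antennae and other sense organs, and the cuticle-secreting epidermis. In the photoreceptors, light activates rhodopsin, which signals through a heterotrimeric G protein and phospholipase C to open the TRP and TRPL channels, and arrestins end the signal. Proteins of this cascade are packed into the rhabdomere, a stack of microvilli that is renewed through life. In a bulk sample, fewer cells of a type and less RNA per cell cannot be told apart.

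The 3 control libraries held 38933684, 41589222 and 39051500 counted reads, and the 5 knockdown libraries 32434805 to 36809556. Levels are given as CPM (read counts at a common library size, after TMM scaling among the controls) and, where genes are set beside each other, as TPM (reads per kilobase of exon, scaled to the same total). CPM of knockdown libraries were scaled within RNA1 or within RNA2, unless scaling over all 8 libraries is stated. Small gaps in CPM between groups are therefore uncertain. Values after ± are the SD over the 3 control libraries (n = 3) unless another error is named. Pairs of control libraries correlated across genes at r = 0.989 to 0.993 on the log2 CPM scale, where genes are not independent replicates. A chi-square test of their counts gave 23.1 to 30.4 per degree of freedom. The test covers counting error only. No pair agreed within that error, but the test cannot tell separate pools of flies from repeated preparations of the same RNA. Each library was counted as 1 replicate, following the titles. FBXO11 (FBgn0037760; BDGP6 3R:9803486-9809368, minus strand) stood at 101 ± 5.78 CPM in the controls, rank 2275 of all genes, and at 42.2 TPM. Scaled over all 8 libraries, it held 108, 103 and 97.4 CPM in the controls, 39.7, 42.5 and 37.4 CPM in RNA1, and 44.8 and 52.7 CPM in RNA2. No knockdown library reached the level of any control.

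Reads were found over most of the annotated genome but were concentrated in few genes. Of 17676 genes in the table, 14167 had a count in at least 1 control library and 3509 had none. At least 1 CPM in every control library was reached by 9316 genes, at least 10 CPM by 7008, at least 100 CPM by 2190 and at least 1000 CPM by 87. Of 13827 protein-coding genes, 8990 reached 1 CPM in all 3 libraries. The 612 to 650 most abundant genes held 50% of the reads of a library, and 3698 to 3750 genes held 90%. The 100 most abundant genes by mean CPM held 23.0%, 22.2% and 23.4% of the reads of the 3 libraries. Control 2 had the smallest share at every list length examined from 1 to 1000 genes. Protein-coding genes held 97.9% of the reads, genes annotated as noncoding RNA 1.19% and pseudogenes 0.0147%. By chromosome, arm 3R held 25.7% of the reads, X 15.2%, the fourth chromosome 2.38% and Y 7.00e-05%. No gene in the table was matched to the mitochondrial genome, so its transcripts could not be analysed here.

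The most abundant transcripts in control heads were those of the photoreceptor rhabdomere. ninaE, which encodes the major rhodopsin of the outer photoreceptors (BDGP6 3R:19886255-19888206, minus strand), stood at 28245, 24741 and 27775 CPM in controls 1, 2 and 3. It alone took 2.69 ± 0.188% of all reads. Arr2, the major arrestin (3L:8647261-8648936, minus strand), followed with 12066, 11625 and 13274 CPM, and its relative Arr1 with 6757, 6358 and 7217 CPM. All 3 transcripts were lowest in control 2. ninaC, a photoreceptor myosin with a kinase domain, held 6464, 6448 and 6935 CPM, so it was close in controls 1 and 2 and higher in control 3. The phototransduction channel gene trp held 4840, 4784 and 5342 CPM, and its partner trpl had a mean of 3368 CPM.

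Beside the visual cascade, the 20 highest genes by CPM held transcripts of ion transport, the synapse, muscle and translation. Atpalpha, the catalytic subunit of the sodium pump, was nearly level over the libraries at 5799, 5785 and 5850 CPM. The muscle myosin heavy chain Mhc held 3926, 4022 and 4459 CPM. The calcium pump SERCA held 3141, 3411 and 3799 CPM. Both muscle-associated transcripts were highest in control 3 and lowest in control 1. The synaptic protein complexin, cpx, went the other way, with 3722, 3118 and 2905 CPM. The remaining genes of the 20 were Ggamma30A (3887 CPM), a G protein subunit of the eye, Pdh (3874 CPM), a dehydrogenase of the retina, Cam (3680 CPM), calmodulin, IA-2 (3633 CPM), a protein of dense-core vesicles, and sesB (3585 CPM), the mitochondrial ADP/ATP carrier. Further down stood chp (3150 CPM), the photoreceptor adhesion protein chaoptin, Fas1 (2938 CPM), a cell adhesion protein, retinin (2735 ± 389 CPM), a protein of the corneal lens, and eEF2 (2678 CPM), an elongation factor.

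A long noncoding RNA was the fifth most abundant transcript. lncRNA:CR42862 (3L:224106-230964, plus strand) held 6169, 6016 and 6271 CPM. It overlaps CG33229 on its own strand, so reads of the 2 genes may have been shared between them. Pdh and SERCA each overlap a gene on the opposite strand (Tcs3 and CG2812), and sesB shares sequence on its own strand with Ant2. No source used here gives the strand setting of the counting, so the levels of these genes are uncertain.

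**Figure D1:**
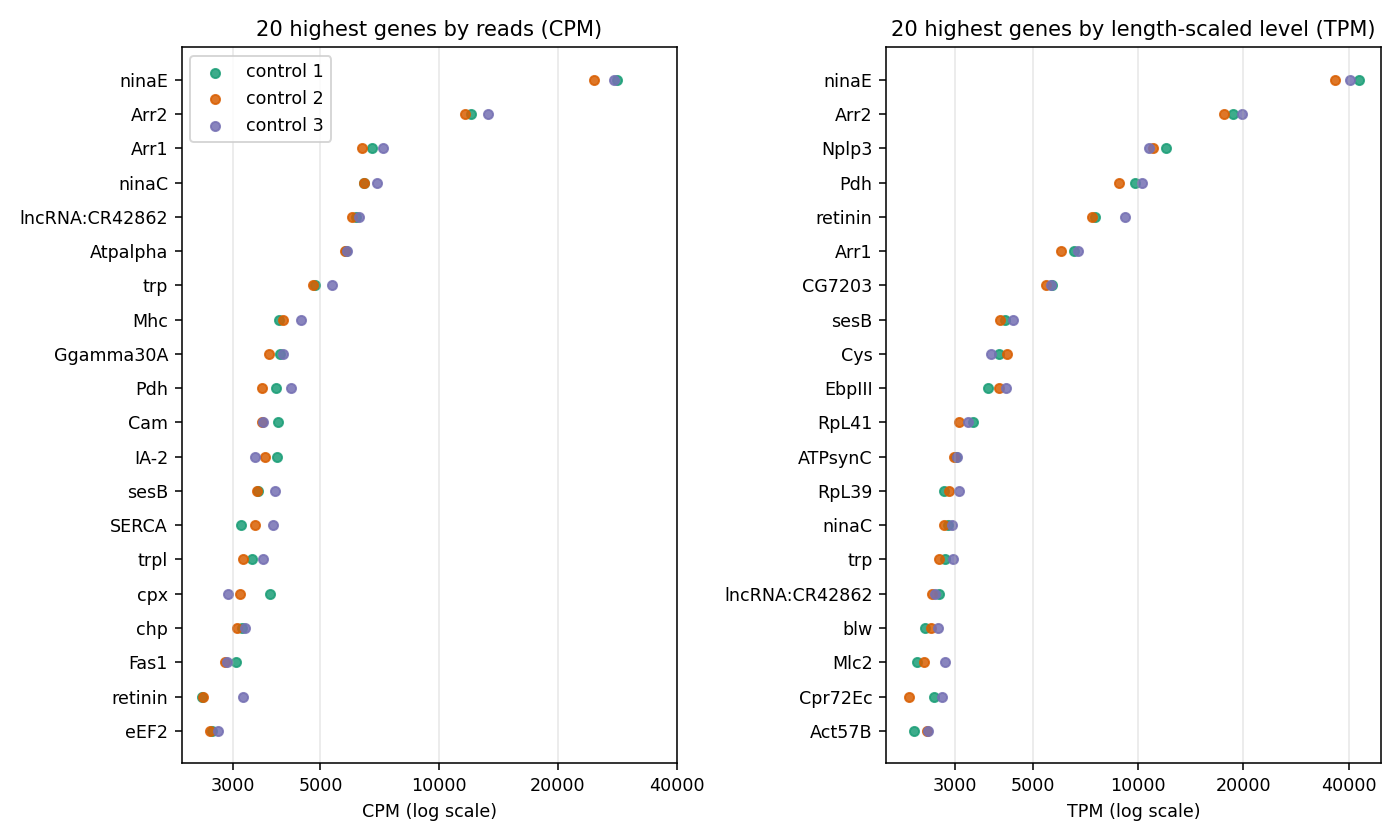
The 20 genes with the highest mean level in the control heads by CPM (left) and by TPM (right), with 1 point for each control library on log axes. ninaE and Arr2 lead both lists, whereas Nplp3 and the small ribosomal protein genes RpL41 and RpL39 enter the list only after scaling for length.

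Scaling for transcript length changed most of the list below its first ranks. Only 40 genes were in the top 100 both by CPM and by TPM. The median exon length was 3684 bases in the CPM list and 1003 bases in the TPM list, against 2179 bases over all genes at 1 CPM or more. By TPM, ninaE stood at 42684, 36559 and 40293 and Arr2 at 18705 ± 1067. Next came Nplp3, which encodes a neuropeptide-like precursor, with 12033, 11027 and 10748 TPM. It was followed by Pdh (9628 TPM), retinin (8042 TPM), Arr1 (6430 TPM) and CG7203 (5593 TPM). The other high transcripts per length included Cys (4000 TPM), a cystatin-type protease inhibitor, EbpIII (3972 TPM), Cpr72Ec (2523 TPM), a cuticular protein of the lens, and the muscle transcripts Mlc2 (2531 TPM) and Act57B (2430 TPM). The short ribosomal protein transcripts RpL41 and RpL39 stood at 3239 and 2911 TPM, although they ranked only 399 and 558 by CPM. In the opposite direction, Mhc ranked 137 by TPM (1072), IA-2 204 (833), Ggamma30A 235 (728) and cpx 250 (670.0). These 4 long transcripts thus ranked lower by TPM than by reads. The 100 highest genes by TPM held 27.3 ± 0.871% of the length-scaled total.

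The 7 rhodopsin genes, named here after their values were seen, mark different photoreceptor classes and differed widely in level. Rh3 and Rh4 are the ultraviolet-sensitive opsins of the inner R7 cells, Rh5 and Rh6 the blue- and green-sensitive opsins of the inner R8 cells, and Rh2 is the opsin of the ocelli. On the TPM scale Rh4 held 1688, 1561 and 1666, and Rh3 averaged 1513 ± 37.6. Rh6 averaged 522 ± 27.5 TPM, Rh2 514 ± 18.5 TPM, Rh5 427 ± 26.3 TPM and Rh7 32.3 ± 3.09 TPM. Rh6 and Rh2 differed by less than their spread over libraries. ninaE made up 90.1%, 89.1% and 89.4% of the summed rhodopsin TPM, or 8.57 ± 0.472 times the other 6 genes together. The ratio of Rh4 to Rh3 was 1.12, 1.05 and 1.07, and that of Rh6 to Rh5 was 1.15, 1.25 and 1.27. Both ratios were above 1 in each of the 3 libraries.

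The full list of 37 phototransduction and rhodopsin genes held 8.96%, 8.40% and 9.24% of the reads, the highest share of all lists examined by reads. All 37 were above 1 CPM in every control, and 33 were above 100 CPM. The list placed 16 genes in the CPM top 100, and ninaE, Arr2 and Arr1 together made up 51.9% of it. Downstream of rhodopsin, the phospholipase C gene norpA averaged 2574 CPM, the diacylglycerol kinase gene rdgA 1462 CPM and the G protein beta subunit Gbeta76C 1432 CPM. The scaffold gene inaD stood at 944 CPM and the protein kinase C gene inaC at 1165 CPM. The G protein alpha subunit gene Galphaq stood at 367 ± 2.76 CPM, nearly level over the 3 libraries. Transcripts of the corneal lens and of proteins secreted in the retina, 5 genes in all, held 0.887 ± 0.0613% of the reads. Eye pigment genes held 0.215 ± 0.00598%, led by Pu (1045 CPM), which encodes GTP cyclohydrolase, and Hn (309 CPM), phenylalanine hydroxylase.

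Genes of protein synthesis and energy metabolism formed the next blocks of reads. The 93 cytosolic ribosomal protein genes held 4.01%, 4.10% and 4.44% of the reads, and 10.8 ± 0.389% of the length-scaled total. By TPM this list was above phototransduction (9.86 ± 0.549%) in each library, and 35 of its genes were in the TPM top 100 against 4 in the CPM top 100. The list was even, its 3 highest genes by CPM, RpL5 (1411), RpL7A (1162) and RpS3A (1103), holding only 8.78% of its reads. The 90 nuclear genes of oxidative phosphorylation held 2.25%, 2.37% and 2.62% of the reads, of which blw, ATPsynC and ATPsynbeta, subunits of the ATP synthase, held 29.8%. blw stood at 2302, 2454 and 2623 CPM. Ion pumps held 2.01 ± 0.0261% of the reads (1.3% by TPM), translation factors 1.28 ± 0.0186%, glycolytic enzymes 0.821 ± 0.0336% and enzymes of the tricarboxylic acid cycle 0.665 ± 0.0324%. Without genes that overlap another on the opposite strand the last share was 0.404%. Together the lists covered 1391 genes and 30.1 ± 0.901% of the reads. Of the 100 most abundant genes, 60 were in a list and 40 were in none.

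**Figure D2:**
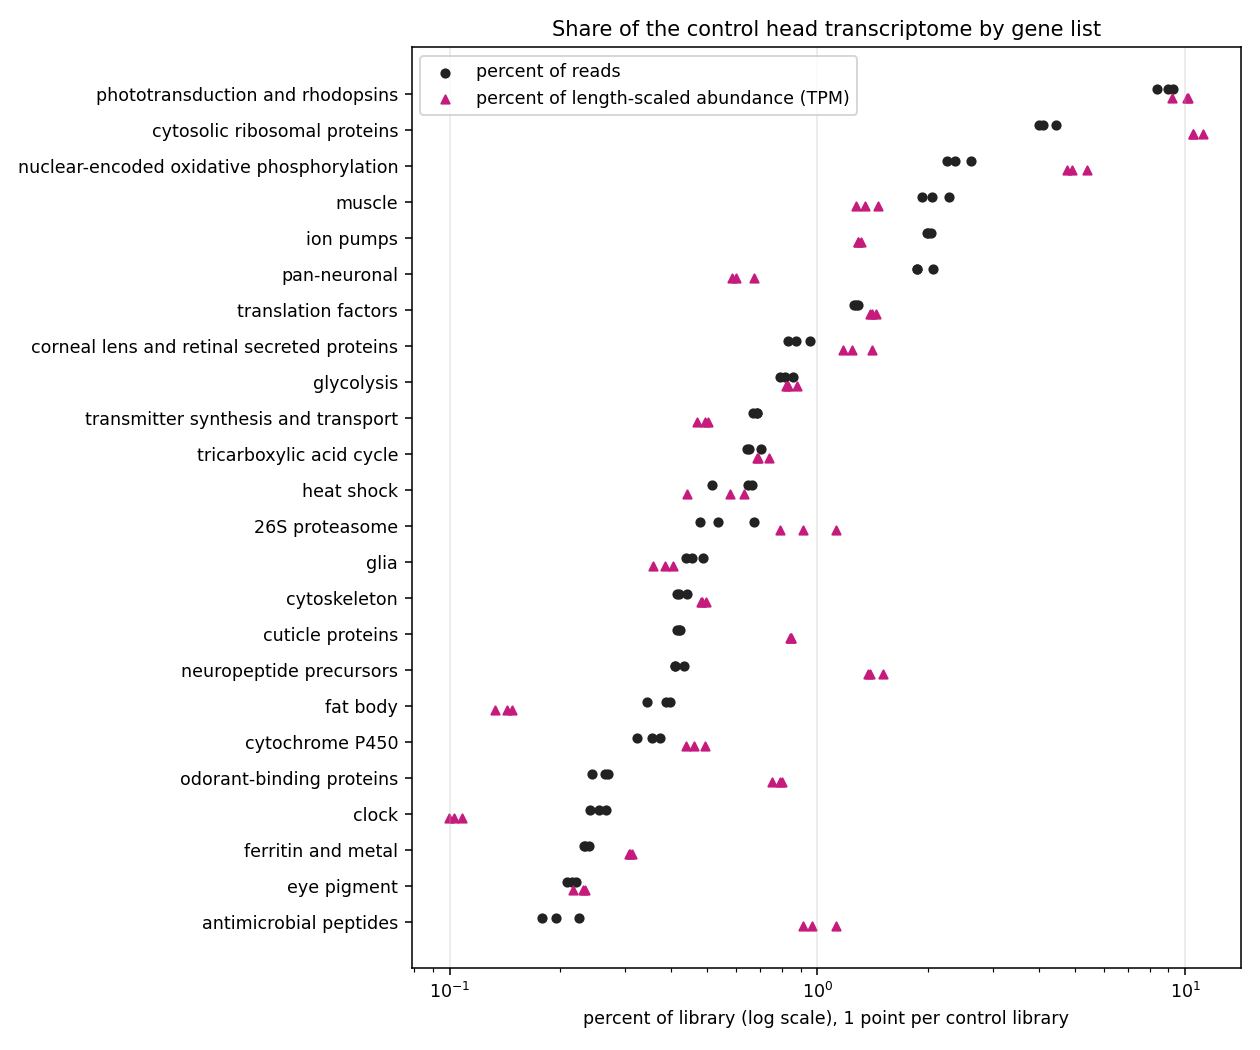
Share of each control library held by the genes of each list, as percent of reads (circles) and percent of the length-scaled total (triangles), on a log axis with 1 point for each of the 3 libraries. Phototransduction leads by reads and ribosomal proteins lead by TPM, and pan-neuronal and clock genes hold a smaller share by TPM than by reads.

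Neuronal transcripts were present at high levels without leading the length-scaled ranks. All 19 pan-neuronal genes were above 100 CPM, and the list held 2.06%, 1.86% and 1.87% of the reads. It placed 7 genes in the top 100 by CPM and 0 by TPM, where it held 0.619 ± 0.0475%. The vesicle fusion protein gene nSyb held 1815, 1705 and 1800 CPM, and Sap47, a synapse-associated protein gene, averaged 1698 CPM. The neuronal RNA-binding protein gene elav stood at 187 ± 18.1 CPM and the sodium channel gene para at 723 ± 75.7 CPM. Of the transmitter genes, Gad1, which makes GABA, led with 1238, 1274 and 1262 CPM, and the choline acetyltransferase gene ChAT stood at 183 ± 9.17 CPM. Of 33 neuropeptide precursor genes, 29 were above 1 CPM, and Nplp3, sNPF and Nplp1 made up 69.3% of their reads. Nplp3 held 2698, 2528 and 2510 CPM, whereas sNPF averaged 166 CPM and Nplp1 150.3 CPM. The 12 clock genes held 0.254 ± 0.0127% of the reads and 0.104% by TPM, with tim at 414, 431 and 421 CPM. The labels do not give the time of day at which the flies were taken.

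Markers of the other head tissues were also measured. Of the glial markers, the glutamine synthetase gene Gs2 held 1390, 1499 and 1409 CPM, the glutamate transporter gene Eaat1 averaged 489 CPM, and the glial transcription factor gene repo stood at 47.4 ± 2.63 CPM. The 26 muscle genes held 1.93%, 2.05% and 2.28% of the reads, and the troponin T gene up averaged 970.2 CPM. The flight muscle actin gene Act88F stood at only 12.4 ± 2.43 CPM. Of the fat body list, 0.376 ± 0.0291% of the reads in all and 0.141% by TPM, the lipoprotein gene apolpp held 1161, 1295 and 1489 CPM and the fatty acid synthase gene FASN1 averaged 1090 CPM. Both were lowest in control 1. The storage protein genes Lsp2 and Fbp1 were lower, at 44.5 and 6.94 CPM. Of the hemocyte markers, Pxn stood at 183 CPM and Hml at 39.8 CPM, and He, at 0.169 CPM, was near the level of 3 counts (0.0721 to 0.0771 CPM). Apart from He, the markers of photoreceptors, neurons, glia, fat body, muscle and hemocytes were all above 1 CPM on average.

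Chemosensory transcripts gave an uneven picture. Of 52 odorant-binding protein genes, 23 were above 1 CPM, and the list held 0.260 ± 0.0135% of the reads and 0.782% by TPM. Obp44a (605 CPM, with Pabp2 on the opposite strand), Obp19d (426 CPM) and Obp56d (368 CPM) made up 53.9% of that share. Of the 5 binding proteins used as markers of olfactory support cells, Obp19d held 403, 423 and 453 CPM of a sum of 418, 451 and 474 CPM. The others had far fewer reads. Obp83a had 15, 22 and 24 counts, or 0.510 ± 0.116 CPM, and Obp83b 14, 8 and 17 counts. Obp28a averaged 9.53 CPM, and lush held 8.28, 15.9 and 8.96 CPM. Of 187 odorant, gustatory and ionotropic receptor genes, 16 were above 1 CPM, the list held 0.0116% of the reads, and the co-receptor gene Orco had 175, 222 and 214 counts. The co-receptor gene Ir25a averaged 9.16 CPM, whereas Ir8a had 0, 0 and 4 counts. Ir62a (14.6, 16 and 14.5 CPM), Ir68a (11.4 CPM) and Or63a (9.79 CPM) were the highest receptors. Among the knockdown libraries, RNA1 1 held 29.5 CPM of Obp83a and 13.1 CPM of Obp83b, while RNA1 2 and RNA1 3 held 0.365 and 0.431 CPM of Obp83a. The labels do not say whether antennae were kept on the heads.

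Tissues outside the head contributed few reads. Digestive enzyme genes held 0.0227 ± 0.00217% of the reads, 7 of 48 being above 1 CPM. The highest were the maltase genes Mal-A5 (91.8 CPM) and Mal-B2 (89.5 CPM), and the trypsin gene alphaTry had no count. The summed level of the 6 gut markers was 12.6, 16.8 and 18.6 CPM in the controls and 31.0 to 119.7 CPM in the knockdown libraries. The groups did not overlap in the sum. Taken singly, only Amy-p did not overlap. It stood at 5.68 to 11.1 CPM in the controls and 23.6 to 92.5 CPM in the knockdown libraries. Mal-A1 overlapped, at 6.76 to 7.35 CPM and 6.15 to 7.57 CPM. In RNA1 3, Jon65Aiii (32.5 CPM) and LysD (37.5 CPM) added to the sum. The part of gut tissue in the differences between controls and knockdowns was not tested. Eggshell and oocyte genes held 0.00113% of the reads (0.00219% by TPM), and Cp15 and Cp16 had no count. No accessory gland gene of 47 reached 1 CPM in all controls, and the sex peptide gene SP had no count. Testis genes held 0.0303% (0.0115% by TPM), almost all of it from bol (281 CPM), which encodes an RNA-binding protein, and the 6 testis markers each averaged at most 0.195 CPM. Cuticle protein genes, 39 of 125 above 1 CPM, held 0.419 ± 0.00369% of the reads and 0.844% by TPM, and Cpr72Ec of the lens led them with 1572, 1363 and 1728 CPM.

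The sex of the flies is not stated. The dosage compensation RNA lncRNA:roX1, made in males, held 1650, 1437 and 1411 CPM, and lncRNA:roX2 held 96.1, 82.1 and 85.2 CPM. The yolk protein genes, which the female fat body transcribes, stood at 36.1 ± 0.309 CPM for Yp3, 1.19 CPM for Yp2 and 0.332 CPM for Yp1. lncRNA:roX1 overlaps ec on the opposite strand, and Yp1 overlaps an antisense RNA. Yp3 differed little between the 3 libraries, and both roX RNAs were highest in control 1.

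Most transcripts agreed closely between the 3 control libraries. Among 7192 genes with a mean of at least 10 CPM, the median ratio of the highest to the lowest library was 1.12, and 3026 genes (42.1%) stayed under 1.1. A ratio of at least 2 was found for 45 genes, which is 0.626% of the genes examined, and a ratio of at least 1.5 for 218 (3.03%). None of the 91 genes with a mean of at least 1000 CPM reached a ratio of 2. In the top 100 by CPM the median ratio was 1.1, and the largest, 1.51, belonged to tmod, the actin-capping protein tropomodulin. The biological coefficient of variation estimated by edgeR was 0.103 for the controls alone and 0.143 over all 8 libraries. The 5 genes above 100 CPM that differed least all had a ratio of 1.00. They were hpRNA:CR18854 (809, 809 and 811 CPM, with IP3K1 on the opposite strand), Zdhhc8 (663, 661 and 662 CPM), the unnamed gene FBgn0031842, CG13743 and CG2246.

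The 45 genes with a ratio of at least 2 were mostly low in control 1. Control 1 was the lowest library for 35 of them, against 33.2% of all 7192 genes, and control 3 was the lowest for the other 10, against 35.4%. Control 2 was the highest library for 22 (32.1% of all genes), control 3 for 21 (34.4%) and control 1 for 2 (33.5%). These genes were chosen for their ratio, so the shares describe the choice and carry no test. The filter of 10 CPM was set on the mean, so a gene low in 1 library could pass through a high one. At a mean of at least 100 CPM, 9 genes had a ratio of 2 or more. The number depended on each library: with only 2 libraries left it was 17 without control 1, 29 without control 2 and 23 without control 3. Just inside the threshold were Mmp1 and CG14258 at 2.04 and Lsp2 at 2.06, and just outside were l(3)mbn, Vajk1, Kah and CG13043 at 1.99.

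The largest ratio, 22.1, belonged to Cpr49Ac, a cuticle protein gene, with 1.34, 3.19 and 29.5 CPM. Its mean of 11.4 CPM passed the filter of 10 CPM only through control 3. CG8483 followed with 104, 154 and 695 CPM. In both genes control 3 stood apart as high. Cpr49Ac was in addition variable among the knockdown libraries, at 16.4 CPM in RNA1 1 and 1.11 to 5.13 CPM in the other 4. CG8483 reached 412 CPM in RNA1 1 and only 15.6 CPM in RNA2 1. Other genes had control 1 below both other controls: CG34217 held 18.9, 67.6 and 96.5 CPM, CG2444 (with PhKgamma on the opposite strand) 12.5, 42.9 and 48.3 CPM, and CG17298 12.9, 37.2 and 48.5 CPM. The same order of libraries was found for frm, with 21.4, 85.1 and 91.7 CPM. In RNA2 1 the last 4 genes were at 0.926, 2.19, 3.42 and 5.61 CPM, below every other library of the series.

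The rest of the 20 genes with the largest ratios included CG14572 (4.97), CG14565 (4.24), CG13639 (3.47), tobi (3.34, with rha on the opposite strand), Obp99b (3.26), dyw (2.85, with per on the opposite strand) and lncRNA:alphagamma-element:CR32865 (5.09). tobi, a glucosidase gene known as a target of insulin and glucagon-like signalling in flies, held 10.2, 23.1 and 34.1 CPM. Obp99b, a male-enriched fat body transcript of the head, held 22.3, 51.6 and 72.6 CPM. lncRNA:alphagamma-element:CR32865, which lies in the heat shock locus and is induced by heat, held 3.52, 17.9 and 9.45 CPM. With a mean of 10.3 CPM, it passed the filter only through control 2. Its highest library was control 2, whereas control 3 was the highest for tobi and Obp99b.

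**Figure D3:**
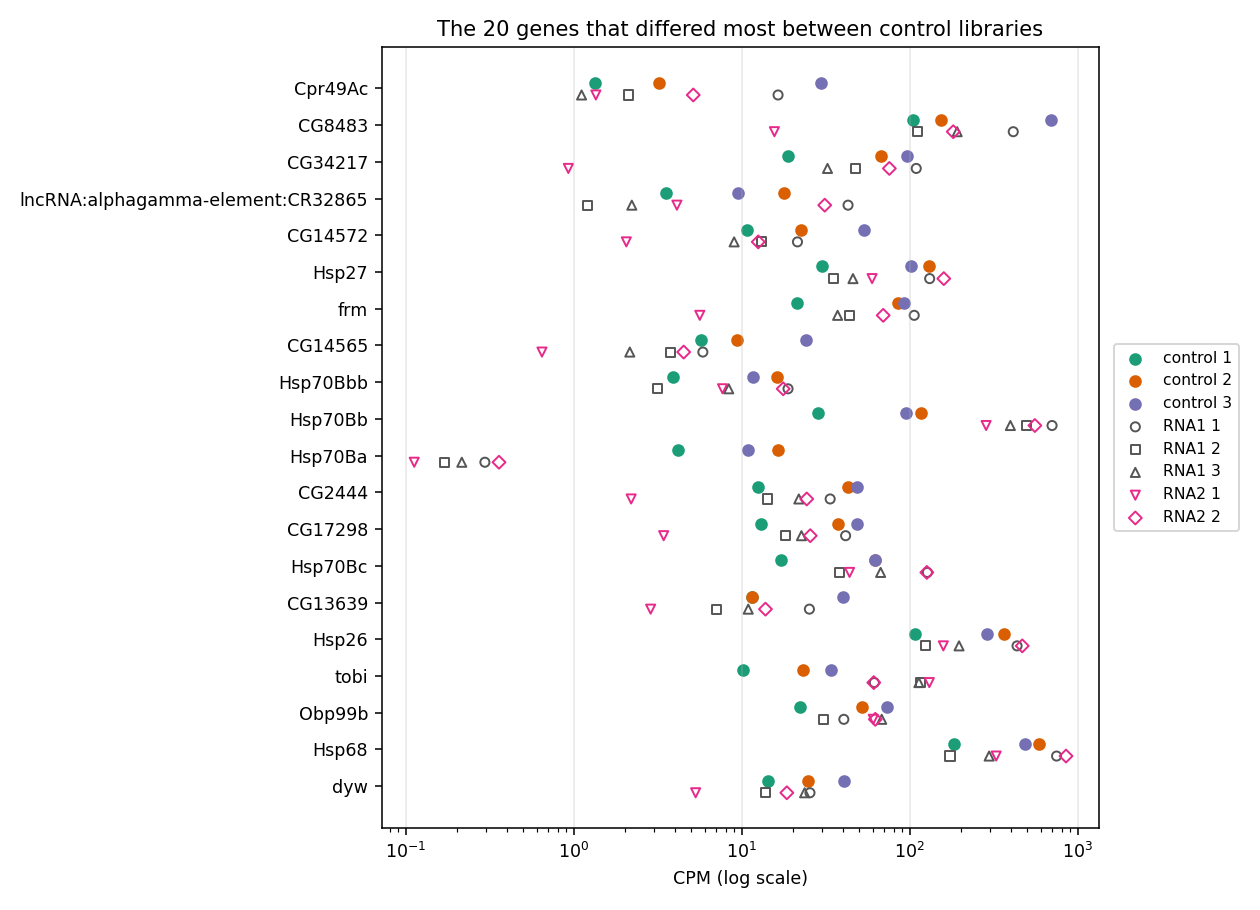
CPM on a log axis of the 20 genes with the largest ratio between control libraries, with the controls as filled circles and the knockdown libraries as open symbols. Control 1 is the lowest control for all 20 genes, and RNA1 1 lies at or above the other RNA1 libraries for most of them.

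Of the lists examined, heat shock held the most variable genes. Of 21 heat shock genes with a mean of at least 10 CPM, 8 (38.1%) had a ratio of at least 2, and 6 stayed under 1.1. Hsp70Ba and Hsp70Bbb, at means of 10.5 and 10.6 CPM, were under 10 CPM in control 1 and passed through the other controls. The 8 genes encode inducible chaperones: Hsp68 and the copies of Hsp70 are members of the large chaperone family that refolds proteins, and Hsp23, Hsp26 and Hsp27 are small heat shock proteins. Hsp68 held 183, 583 and 481 CPM. Hsp26 held 107, 364 and 286 CPM, and Hsp27 29.9, 130.0 and 102 CPM. All 8 were lowest in control 1 and highest in control 2. The Hsp70 copies gave the same order, with Hsp70Bb at 28.4, 117 and 94.2 CPM and Hsp70Bc at 17.1, 61.7 and 61.6 CPM. They are nearly identical in sequence, so reads may be split between copies. The constitutive chaperone gene Hsc70-4 was level at 1587, 1617 and 1631 CPM. Hsp68 and Hsp27 each overlap a gene on the opposite strand.

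The 8 heat shock genes also shared an order of libraries within each knockdown, and the knockdown libraries had no part in their choice. Among RNA1 libraries all 8 were highest in RNA1 1, against 35.8% of all genes at 10 CPM. All 8 were higher in RNA2 2 than in RNA2 1, against 49.3%. The RNA2 libraries differ in genotype entry (KD2 and KD3), so their order does not compare replicates of the same genotype. Hsp68 held 746, 173 and 296 CPM in RNA1 and 326 and 849 CPM in RNA2. The lowest knockdown library for Hsp68, RNA1 2, stood at 173 CPM beside 183 CPM in the lowest control. Each group was scaled within itself, so that gap is uncertain. The highest knockdown library was above all controls. Hsp70Ba stood at only 0.112 to 0.358 CPM in the knockdown libraries, so its order there rests on few counts, and the Hsp70 copies differed from the controls in opposite directions. As these genes share regulation, they do not count as 8 independent observations.

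The same holds for the variable genes as a set. A ratio of at least 2 among the 3 RNA1 libraries was found for 27 of the 45 genes (60.0%), against 1.28% of all 7192 genes, and the median ratio in RNA1 was 2.23 against 1.17. Between the 2 RNA2 libraries 33 of the 45 (73.3%) differed by at least 2, against 2.13% of all genes. The library with the highest level was RNA1 1 for 29 of the 45 (64.4%), and RNA2 2 was above RNA2 1 for 37 (82.2%). RNA2 1 was the lowest of all 8 libraries for 23 of the 45 (51.1%), against 17.6% of all genes. No value in the labels distinguishes the libraries of a group, other than the KD2 and KD3 genotypes of RNA2 1 and RNA2 2.

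The proteasome genes differed between the control libraries in a shared order. The 26S proteasome degrades ubiquitin-tagged proteins, and its subunits are made in fixed proportions. Of 48 proteasome genes in the list, 32 were above 10 CPM and the other 16 stood at 0.919 CPM or less. The summed CPM of the list was 5361, 6718 and 4786 in the controls. Rpn2 held 359.6, 464 and 315 CPM, Rpn6 331, 384 and 260.4 CPM, and Rpn1 290.1, 395 and 256 CPM. All 32 genes were highest in control 2, against 32.1% of all genes, and 31 were lowest in control 3, against 35.4%; Prosbeta5 was lowest in control 1. Ratios lay between 1.2 and 1.54 with a median of 1.39, against 1.12 over all genes. Of the 7192 genes, 219 had this order with a ratio of at least 1.3, and 27 of them (12.3%) were proteasome subunits.

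In the knockdown libraries, scaled within their own group, the summed proteasome level was 5551, 3801 and 5356 CPM in RNA1 and 2707 and 5033 CPM in RNA2. All 32 genes were at their lowest in RNA2 1 and at their lowest within RNA1 in RNA1 2, and 30 had their highest value of the series in control 2. The control range, 4786 to 6718 CPM, contained 3 of the 5 knockdown sums. By edgeR, 0 of 33 proteasome genes tested passed FDR 0.05 against control in either knockdown, with a median log2 difference of -0.21 in RNA1 and -0.56 in RNA2. The background for these comparisons was 10.3% of 11081 tested genes called in RNA1 and 3.78% in RNA2.

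Shared orders of smaller size were found for other lists. Of the genes above 10 CPM, 67 of 68 for oxidative phosphorylation, 79 of 84 cytosolic ribosomal protein genes, 23 of 24 muscle genes, 12 of 12 genes of the tricarboxylic acid cycle and 48 of 64 mitochondrial ribosomal protein genes were highest in control 3, against 34.4% of all genes. Of the 19 pan-neuronal genes, 17 were highest in control 1, against 33.5%. Within the phototransduction list, 26 of 36 genes were lowest in control 2, against 31.4% of all genes. The sizes were modest: the median log2 deviation from the mean of the 3 libraries was 0.14 for oxidative phosphorylation and 0.13 for muscle in control 3, 0.09 for pan-neuronal genes in control 1, and -0.05 for phototransduction in control 2. For the proteasome it was 0.27 in control 2 and -0.20 in control 3. For heat shock it was -0.29 in control 1. Whether the libraries differed in the amounts of muscle, brain and eye was not tested, and the levels of genes in a list are not independent.

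**Figure D4:**
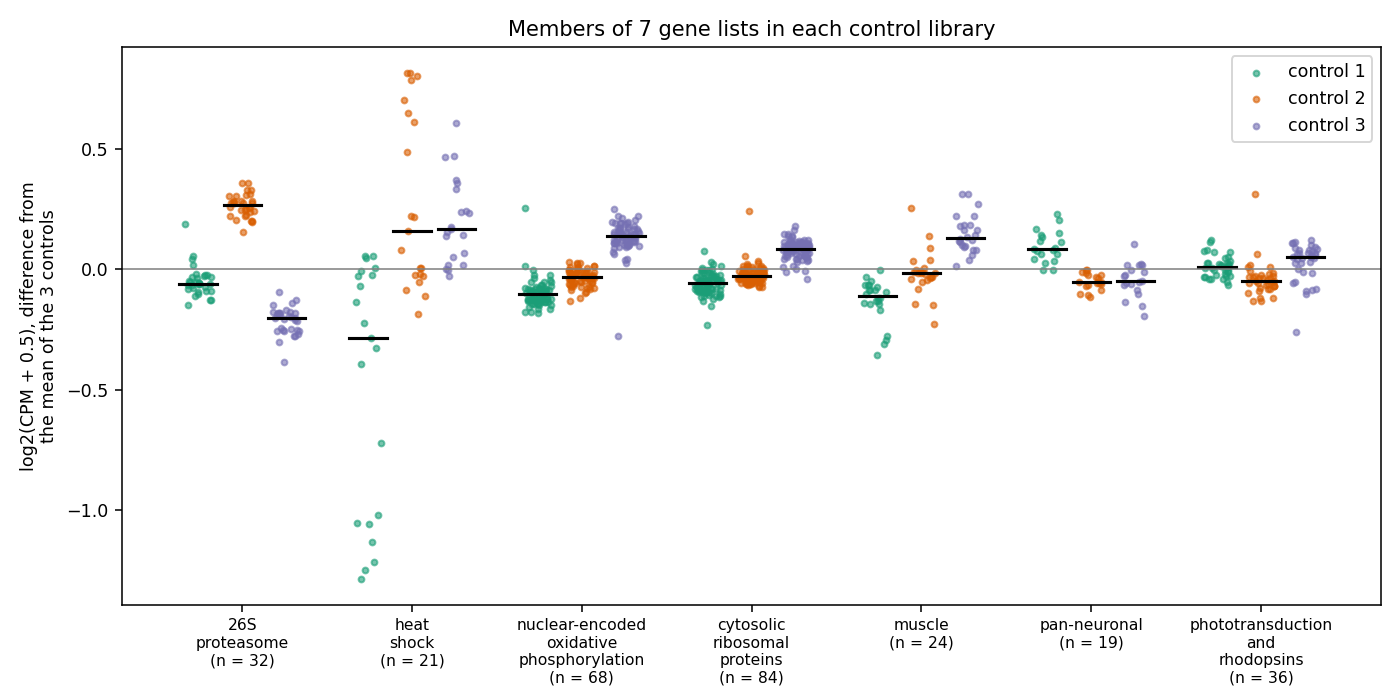
Difference of log2(CPM + 0.5) in each control library from the mean of the 3 controls, for the genes of 7 lists with a mean of at least 10 CPM; each point is a gene and each black bar the median of a list in 1 library. The proteasome list stands highest in control 2 (0.27), heat shock lowest in control 1 (-0.29), and muscle and oxidative phosphorylation highest in control 3.

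**Figure D5:**
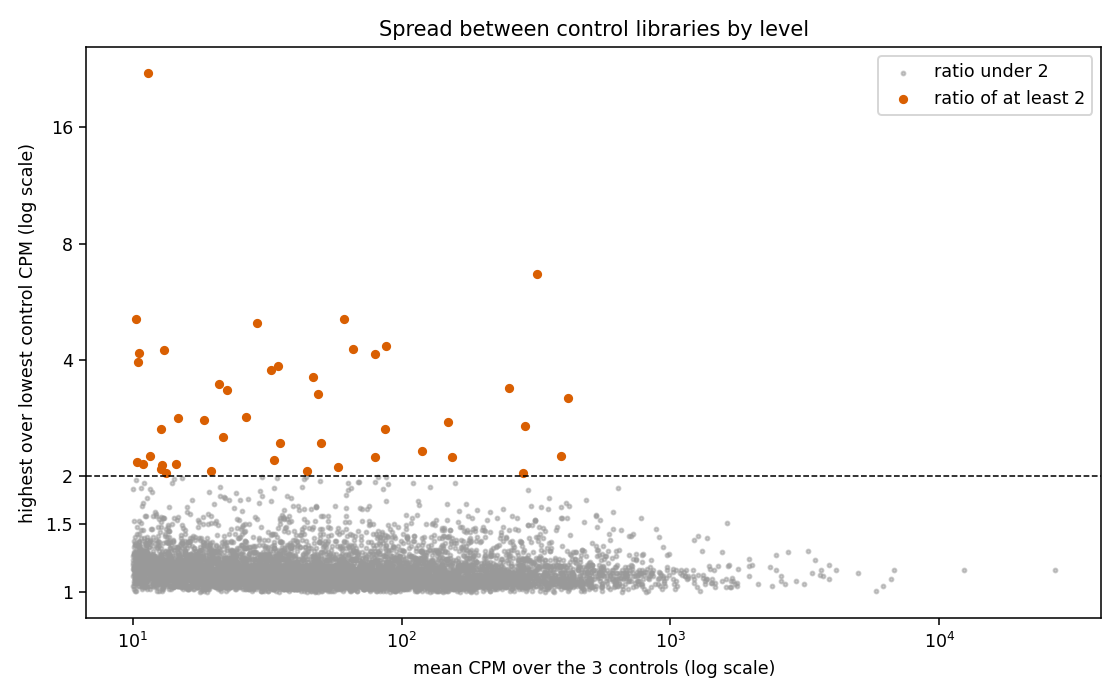
Ratio of the highest to the lowest control library against mean CPM (both axes log) for the 7192 genes with a mean of at least 10 CPM. The 45 genes at or above a ratio of 2 lie mostly below 100 CPM, and none has a mean of 1000 CPM or more.

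Against the knockdown libraries, which share the 3 controls between both comparisons, the 100 most abundant genes of control heads by CPM were called at a share near that of all genes, and the 100 highest by TPM at a larger share. Of the 100 most abundant genes by CPM, 84 to 90 were also in the top 100 of each knockdown library. In RNA1 10 of the 100 passed edgeR's FDR of 0.05, 1 higher and 9 lower, against 10.3% of all 11081 genes tested. In RNA2 3 of the 100 passed, 1 higher and 2 lower, against 3.78%. The counts rested on single libraries: without 1 of the controls or RNA1 2, 5 or 6 genes passed in RNA1, and without 1 of the controls, RNA1 2 or RNA2 1, 0 or 1 passed in RNA2. Of the 100 highest genes by TPM, 19 passed in RNA1, 12 higher and 7 lower, against the same 10.3% of all genes, and 8 in RNA2, 4 in each direction, against 3.78%. Whether the TPM list differs from other genes was not tested. Between RNA2 and RNA1, edgeR called 0 of the top 100 by CPM, with 4 at an unadjusted p under 0.05. The RNA2 libraries carry different genotype entries (KD2 and KD3), so genotype and replicate cannot be told apart in any RNA2 contrast.

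Among the calls in RNA1, log2 differences from edgeR are given with an approximate SE. CPM of the genes named here and among the calls in RNA2 were scaled over all 8 libraries. Msr-110 held 1761, 1716 and 1520 CPM in controls and 901, 1038 and 1225 CPM in RNA1, and fell by 0.66 ± 0.12 on the log2 scale (edgeR FDR 0.00848). EbpIII held 1824, 2002 and 2165 CPM in controls and 1093, 1357 and 1355 CPM in RNA1, and fell by 0.65 ± 0.11 (edgeR FDR 0.00739). Groups did not overlap for either gene. Genes of the eye followed: eys, a protein of the space between rhabdomeres (with CG9967 on the opposite strand), was at 1204, 1097 and 1143 CPM in controls and 661, 855 and 784 CPM in RNA1, a fall of 0.58 ± 0.10 (edgeR FDR 0.00819). Cpn, the photoreceptor calcium-binding protein calphotin, was at 1359, 1397 and 1275 CPM in controls and 1005, 806 and 897 CPM in RNA1, and fell by 0.57 ± 0.11 (edgeR FDR 0.0112); without control 2 its FDR was 0.0545. Pdh was at 3907, 3604 and 4312 CPM in controls and 2567, 2808 and 2761 CPM in RNA1, and fell by 0.54 ± 0.09 (edgeR FDR 0.00739). Every RNA1 library was below every control in these 5 genes, which were chosen as the 5 largest called differences, so that the separation follows largely from the choice. Of all 37 phototransduction and rhodopsin genes, 8 were called lower and 0 higher in RNA1. Of all 11081 genes tested, 582 were lower and 555 higher in RNA1. In RNA2, 2 of the 37 were called lower and 0 higher, against 224 lower and 195 higher of all genes tested. The median log2 difference of the 37 genes was -0.11 in RNA1 and -0.03 in RNA2. The summed photoreceptor markers, scaled within each group, overlapped, at 53198 to 59011 CPM in the controls and 55438 to 55995 CPM in RNA1.

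The 3 calls in RNA2 were also called in RNA1. Msr-110, at 1043 and 1035 CPM in RNA2, fell by 0.68 ± 0.13 (edgeR FDR 0.0213), and EbpIII, at 1405 and 1253 CPM, fell by 0.59 ± 0.13 (edgeR FDR 0.0340). Without either RNA2 library, control 1 or control 2, the FDR of both genes was between 0.0527 and 0.140, and that of EbpIII was 0.11 without control 3 and 0.0568 without RNA1 2. RpS3A, a ribosomal protein gene, was at 1077, 1082 and 1207 CPM in controls and at 1503 and 1436 CPM in RNA2, and rose by 0.39 ± 0.09 (edgeR FDR 0.0473); in RNA1, at 1569, 1566 and 1444 CPM, it rose by 0.44 ± 0.08 (edgeR FDR 0.0104). In RNA2 the RpS3A call was lost without RNA1 2, either RNA2 library or any 1 control (FDR 0.0696 to 0.272). The other calls in RNA1 were SERCA, Msp300, shot and Ogdh, all lower. Control and knockdown libraries differ in genotype entry, and genetic background and the knockdown cannot be told apart.

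Of the control-variable genes, 6 of 45 (13.3%) passed in RNA1 and 4 of 45 (8.89%) in RNA2, against 10.3% and 3.78% of all genes tested. Mtk, AttC and DptB, which encode antimicrobial peptides, were among them. Mtk held between 7.51 and 19.9 CPM in the controls, and 155, 324 and 121 CPM in RNA1 and 326 and 166 CPM in RNA2, and rose by log2 3.92 in RNA1 (edgeR FDR 0.0162) and 4.23 in RNA2 (edgeR FDR 0.0270). AttC rose by 4.33 and 4.73, and DptB by 4.83 and 4.84; each overlaps a gene on the opposite strand. The calls of DptB held without any 1 library. Those of Mtk were lost without control 1 or control 2 (FDR 0.0585 to 0.106), and in RNA2 also without RNA2 1, and that of AttC in RNA2 was lost without control 2 (0.0709) or RNA2 1 (0.115). All 3 were at their lowest in control 1, and their knockdown libraries lay above every control. The summed fat body markers also did not overlap between the groups, at 1502, 1748 and 1889 CPM in the controls and 2043 to 3115 CPM in the knockdown libraries. Taken singly, Fbp1, Lsp2 and bmm did not overlap, whereas apolpp, Lsd-1 and Apoltp did. The read share of the fat body list overlapped, at 0.343 to 0.398% in controls and 0.378 to 0.554% in knockdown libraries. The summed hemocyte markers, scaled within each group, were at 229 to 250.1 CPM in the controls and 260.1 to 369.9 CPM in the knockdown libraries. The gap from 250.1 to 260.1 CPM is small and uncertain under this scaling. Pxn, the highest of them, overlapped, at 177 to 194 CPM in the controls and 158 to 217 CPM in the knockdown libraries. He overlapped as well, whereas Hml, NimC1, eater and Sr-CI did not. Such separation was not particular to the fat body, hemocyte and gut markers. Read shares of ion pumps, translation factors, cytoskeleton, cuticle proteins and neuropeptide precursors did not overlap between controls and knockdown libraries either. Those of phototransduction, muscle and oxidative phosphorylation overlapped. How often single genes separate over the whole table was not tested. The part of fat body and hemocytes in the antimicrobial peptide levels was not tested. The Hsp70 copies went in different directions: Hsp70Ba held 4.17, 16.5 and 10.9 CPM in the controls and 0.112 to 0.358 CPM in the knockdown libraries, and fell by 5.55 ± 0.65 on the log2 scale in RNA1 (edgeR FDR 0.00344). Hsp70Bb, at 701, 492 and 396 CPM in RNA1, rose by 2.69 ± 0.60 (edgeR FDR 0.0466). CG11426 held 257, 97.4 and 92.8 CPM in the controls and 21.2, 34.1 and 28.4 CPM in RNA1, and fell by 2.45 (edgeR FDR 0.0254). The calls of Hsp70Bb and CG11426 were lost without any 1 of the 5 knockdown libraries, with FDR up to 0.104, and that of Hsp70Bb also without control 2 (0.0773) or control 3 (0.108).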

How the data were processed

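Libraries were stranded and poly(A)-selected, made from RNA of adult heads, per the labels' protocols. The deposited values are raw counts of reads per gene, which the authors did not normalize. Per the submitters' processing notes, bcl2fastq 2.17, cutadapt 1.18, FastQC 0.11.8, STAR 2.6.1, SAMtools 1.8 and DESeq2 1.24.0 were used with build BDGP6. No source used here gives the counting tool, its strand setting or the release of the annotation. Symbols, exon lengths and coordinates come from an Ensembl annotation (release 115) of BDGP6, which matched 17549 of 17676 gene IDs. The other 127 are given no name.

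Groups follow the titles, so the KD2 and KD3 libraries were joined as RNA2. Control levels were computed as CPM with TMM factors within the 3 controls, and as TPM from union exon length. The contrasts used edgeR 4.0.16 in R 4.3.3: filterByExpr (minimum count 10, minimum total 15), TMM, 1 quasi-likelihood fit of all 8 libraries with a mean per group, two-sided F tests and Benjamini-Hochberg FDR over 11081 genes, called under 0.05. The SE is the absolute log2 difference divided by the square root of F and is approximate. DESeq2 1.42.0 was an alternative. Others were library totals, no filter, a replicate block and leaving out each library. Reads were amplified and carry no molecular identifiers, and the level of 3 counts therefore covers counting error only.

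Genes were named by rule: the 20 highest by CPM and by TPM, the 3 highest members of a described list, tissue markers, the 20 largest and 5 smallest control ratios, and the 5 largest differences called among the top 100. Not every gene that met a rule is named: crq, Pdp1, sgg, CG14186, Lpin, Hsp83 and lncRNA:Hsromega, each among the 3 highest of its list, are examples. A few others were chosen after their values were seen: the rhodopsins beyond ninaE, further members of the visual cascade, tim, Ir25a, Ir8a, Orco, Hsp23, Mtk, AttC, DptB, CG11426 and the genes beside the ratio threshold. Hr38 is also named outside these rules. The members and gene lists were chosen with earlier results of these data known, and several lists overlap.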

Additional observations from a re-analysis of the deposited data

How the results depend on the processing

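Replacing CPM by TPM moved the share of the 100 most abundant genes to 27.3%, phototransduction to 9.86%, muscle to 1.36%, oxidative phosphorylation to 5.03% and ribosomal proteins to 10.8%; with the longest transcript as length the last 4 were 9.44%, 1.55%, 4.98% and 10.7%. Without genes that overlap another on the opposite strand, phototransduction was 10.8% and oxidative phosphorylation 2.07%. Leaving out 1 control gave 22.6 to 23.2% for the top 100, 8.68 to 9.10%, 1.99 to 2.16%, 2.31 to 2.49% and 4.06 to 4.27% for these lists, and 9377 to 9387 genes at 1 CPM. The number of control-variable genes was 198 at a mean of 1 CPM, 9 at 100 CPM, 218 at a ratio of 1.5, and 17 to 29 without 1 control. At 1 CPM, 83 of them had a ratio of 2 in RNA1. For RNA1, edgeR called 476 to 1189 genes with 1 library left out, 773 with the replicate block, and DESeq2 called 1642; in the top 100 these were 5 to 13, 7 and 22. For RNA2 they were 115 to 561, 214 and 910, and 0 to 4, 0 and 9. The replicate numbers did not pair the libraries: the deviations of same-numbered libraries correlated at -0.231 to 0.164, so the block says nothing about weaker effects. Under the replicate block the RNA2 calls of Msr-110, EbpIII, RpS3A, Mtk, AttC and DptB and the RNA1 calls of Mtk, AttC, Hsp70Bb and CG11426 were lost (FDR 0.0632 to 0.162). Over all alternatives for the named genes of the contrasts, the call was kept 191 times, lost 49 times and reversed 0 times; FBXO11 kept its call throughout. Depth limits the genes near 3 counts.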

Other observations

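Detoxification genes were expressed in control heads with a few leading members. Of 84 cytochrome P450 genes, 65 were above 1 CPM, and they held 0.351 ± 0.0254% of the reads (SD, n = 3). Cyp313a1 held 777, 941 and 819.5 CPM, Cyp6d5 averaged 236 CPM and Cyp6a20 189 CPM. Of 36 glutathione transferase genes, 30 were above 1 CPM, led by GstD1 with 344, 374 and 373 CPM and GstE12 with a mean of 304 CPM. Of 35 UDP-glycosyltransferase genes, 20 were above 1 CPM, led by Ugt35B1 at 136 CPM. Control 1 had the smallest share of reads for each of the 3 families.

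Genes of iron handling and immunity were measured as well. The transferrin gene Tsf1 held 830.3, 905 and 807 CPM, and the ferritin subunit genes Fer1HCH and Fer2LCH, which overlap on opposite strands, averaged 616 and 512 CPM. Of 38 antimicrobial peptide genes, 27 were above 1 CPM in the controls and held 0.178%, 0.225% and 0.195% of the reads, against 0.498 to 0.727% in the 5 knockdown libraries; by TPM they held 1.00% in the controls. The fat body marker sum (1502 to 1889 CPM in the controls, 2043 to 3115 CPM in the knockdown libraries) and the hemocyte marker sum (229 to 250.1 against 260.1 to 369.9 CPM) did not overlap between these groups either. The read share of the fat body list did overlap (0.343 to 0.398% against 0.378 to 0.554%), as did Pxn, the highest hemocyte marker. The gap in the hemocyte sum is small and uncertain, as each group was scaled within itself. Read shares of lists such as ion pumps and translation factors did not overlap either, whereas those of phototransduction and muscle overlapped. The part of fat body and hemocytes in the peptide levels was not tested. BomS3, a short peptide of the bomanin family, held 273, 399.9 and 239.6 CPM, Dso1 averaged 302 CPM and BomS2 227 CPM. Of 9 activity-regulated genes, kay stood at 185 CPM, Arc1 at 84.2 CPM and Hr38 at 80.5 CPM, and the list held 0.0799% of the reads (0.0484% by TPM).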
